A study of Homo sapiens with 16 samples.

Results

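The change that siRNA transfection made to the transcriptional response to TGFb was measured in PANC-1, an established human pancreatic carcinoma line. It was taken as an interaction: the log2 effect of TGFb averaged over cells with FLASH, NPAT or SLBP siRNA, minus the log2 effect of TGFb in non-transfected cells. All 16 libraries of the series entered this comparison, and 17743 of 58219 genes had enough counts to be tested. An interaction below 0 on this scale arises from a level that ends lower with TGFb, from a level that starts higher without it, or from a mixture. Each gene was therefore also compared between siRNA cells and non-transfected cells with TGFb (the end level) and without TGFb (the start level), and the interaction equals the end difference minus the start difference.

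TGFb binds a pair of serine and threonine kinase receptors, which phosphorylate SMAD2 and SMAD3. These join SMAD4 in the nucleus and turn on genes of the extracellular matrix, the contractile cytoskeleton and the feedback regulators of the pathway itself. In epithelial and pancreatic carcinoma cells TGFb drives the epithelial to mesenchymal transition (EMT), in which epithelial junction genes fall and mesenchymal genes rise. FLASH (encoded by CASP8AP2), NPAT and SLBP are known for their part in making the transcripts of replication-dependent histones.

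The groups with siRNA were FLASH siRNA with TGFb, NPAT siRNA with TGFb, SLBP siRNA with TGFb, and the same siRNAs without TGFb. The references were non-transfected cells with TGFb and without TGFb, and each of the 8 groups had 2 libraries. TGFb was given at 100 ng/ml for 48 h. The sample titles name day 3 and the series text places the RNA at 4 days after transfection. There was no group with a non-targeting siRNA, and the labels do not say whether the non-transfected cells, called mock in the descriptions, received transfection reagent. An effect of a given knockdown and an effect of transfection shared by all siRNAs therefore cannot be told apart here. All cells were wild type by the labels apart from the siRNA.

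Libraries held 23.8 to 30.8 M counts. CASP8AP2 had 10.1 to 13.1 CPM (counts scaled to library size) in the 4 libraries with FLASH siRNA, against 51.1 to 62.4 CPM in the 4 non-transfected libraries. NPAT had 5.18 to 7.69 CPM with NPAT siRNA, against 47.0 to 54.1 CPM in non-transfected cells. SLBP had 3.53 to 4.31 CPM with SLBP siRNA, against 63.2 to 71.7 CPM in non-transfected cells. The 8 ductal carcinoma markers were present in all libraries and summed to 2730 to 4560 CPM in siRNA cells and 3080 to 3550 CPM in non-transfected cells. The 9 acinar and endocrine markers stayed under 1 CPM each. The 8 fibroblast and stellate cell markers summed to 27.8 to 69.3 CPM in siRNA cells and 5.84 to 9.56 CPM in non-transfected cells, with no marker at 0 throughout an siRNA group and 1 marker at 0 in all non-transfected libraries. The 8 endothelial markers summed to 5.47 to 66.0 CPM in siRNA cells and 3.40 to 39.8 CPM in non-transfected cells, with 1 of 8 at 0 throughout NPAT siRNA cells and 5 of 8 in all non-transfected libraries. Of the 5 with enough counts to be tested, 4 ended higher and 5 started higher (median 5.49 log2), against 16.6% and 20.1% of all genes tested. As 5 of 8 had no counts in non-transfected cells, some of those tested passed the count filter only through siRNA libraries. The counts of called markers come from that selection. By group, 4, 5 and 4 of the 8 stayed under 1 CPM with FLASH, NPAT and SLBP siRNA, and 7 in non-transfected cells. The 9 leukocyte markers summed to 25.6 to 180 CPM in siRNA cells and 42.0 to 125 CPM in non-transfected cells, with 0 and 3 of 9 at 0 throughout. Those sums rest on few genes. Under 1 CPM in every library stayed 7 of 9 with FLASH siRNA, 7 with NPAT siRNA, 8 with SLBP siRNA and 8 in non-transfected cells. Several matrix genes described below were higher in the same siRNA libraries as the fibroblast and endothelial markers, and the part of the markers in those results was not tested. In such bulk samples fewer cells of a type and less RNA per cell cannot be told apart.

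Few genes had a TGFb response that siRNA changed beyond the replicate error, and all of those with a weaker fold response started from a higher level. The interaction passed the threshold in 9 genes, which is 0.0507% of the genes tested, in an edgeR quasi-likelihood F test with Benjamini-Hochberg adjustment over all genes at 0.05. Of these, 8 are described here: IGF2, COL5A1, DACT1, TMEM92, NKAIN4, CYP24A1 and MDGA1 had a weaker fold induction, and SORL1 gained one (the interaction was lower in 0.0451% and higher in 0.00564% of the genes tested). That balance turned on scales chosen after seeing the data that weigh low levels less: limma-trend called 29 interactions on log2(CPM + 1), 22 of them higher, and 36 on log2(CPM + 5), 32 of them higher and 4 lower. An unadjusted p under 0.05 was found in 618 genes, or 3.48%, where uniform p values would give 5%. The median standard error of an interaction was 0.24 on the log2 scale and the smallest called interaction was 1.20 in size, so changes of response smaller than about that size were mostly not detectable with 2 libraries a group. The number of calls also rested on the untreated controls: without replicate 1 or without replicate 2 of the non-transfected cells, 1 gene was called, and none of the 8 described. Leaving out each non-transfected library with TGFb left 5 and 6 calls, and leaving out an siRNA library left 6 to 11.

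The start and end levels themselves differed far more often than the response. With TGFb, 5074 genes (28.6%) differed between siRNA and non-transfected cells, of which 2946 were higher in siRNA cells. Without TGFb, 6266 genes (35.3%) differed, of which 3561 were higher. TGFb itself changed 4449 genes on average over the siRNAs (25.1%), a mean that rests on 12 libraries, and 1096 genes in the 4 non-transfected libraries (6.18%). These counts differ in the number of libraries behind them and do not rank the responses in size.

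Most genes that TGFb induced in non-transfected cells were induced in siRNA cells as well. Of the 805 genes that rose with TGFb in non-transfected cells, 760 (94.4%) also rose in siRNA cells, where 13.8% of all genes tested rose, and 0 fell. Of the 291 genes that fell (1.64% of all genes tested), 269 (92.4%) also fell in siRNA cells, where 11.3% of all genes tested fell, and 0 rose. These 2 responses share no library. The median response of the 805 induced genes was 0.83 log2 in siRNA cells and 1.10 log2 in non-transfected cells. They were picked for a rise in the non-transfected libraries, which raises that median. For the 2448 genes picked for a rise in siRNA cells, the medians were 0.60 log2 in siRNA cells and 0.49 log2 in non-transfected cells.

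**Figure D1:**
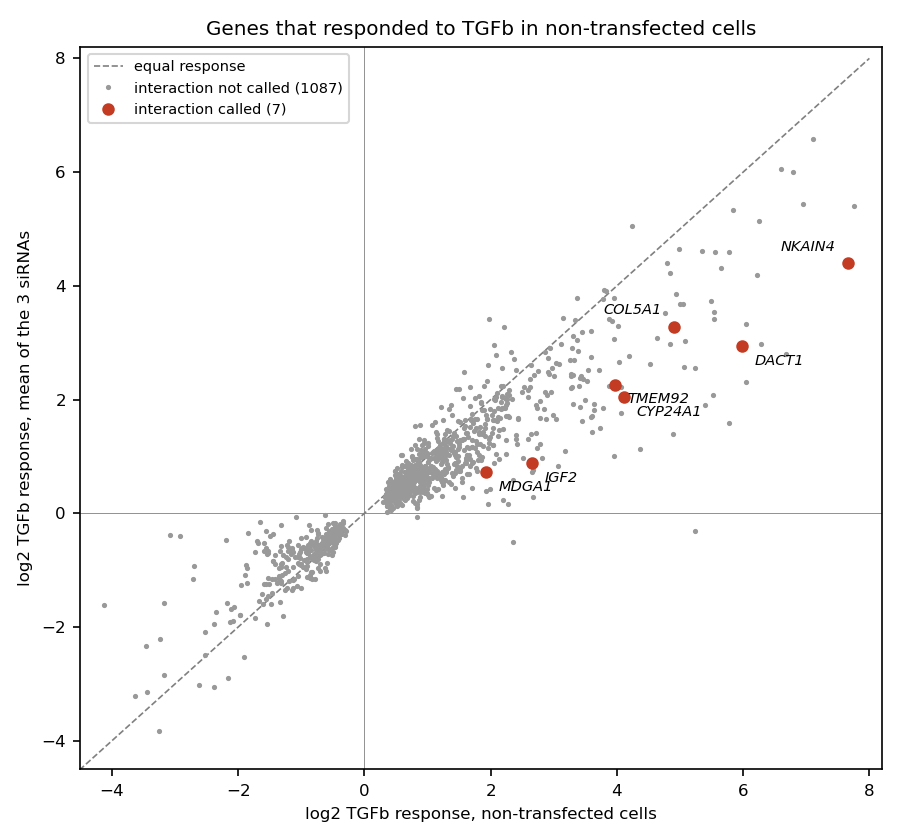
Each point is a gene that responded to TGFb in non-transfected cells, with the log2 TGFb response averaged over the 3 siRNAs on the vertical axis and that of non-transfected cells on the horizontal axis. The 7 genes with a weaker response that passed the test (large points) lie below the dashed line of equal response and above 0, between 0.72 and 4.40 log2 in siRNA cells. Induced genes, picked for a rise in non-transfected cells, lie below the line more often than above it (median interaction -0.24 log2). Some without a called interaction lie farther below it than these 7, such as RSPO1 (5.24 log2 in non-transfected and -0.32 log2 in siRNA cells) and LSP1 (5.77 and 1.59 log2). The axes leave out KLRC4, VAV3 and DNAJC5G, at -6.81, -5.72 and -4.85 log2 in non-transfected cells.

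Among the 805 induced genes, a raised start was more common than a lowered end. The end level was lower in siRNA cells for 84 of them (10.4%, against 12% of all genes tested) and higher for 250 (31.1%, against 16.6%). The start level was higher for 360 (44.7%, against 20.1% of all genes tested). Both levels were higher for 224 genes, and the start alone was higher for 134. The end alone was lower for 53, and 332 differed at neither level. These shares describe the split, since the start level of a gene and its response in non-transfected cells use the same untreated libraries. The end level and that response likewise share the TGFb-treated non-transfected libraries, so the choice of induced genes also favours a lower end.

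IGF2 encodes insulin-like growth factor 2, a growth factor whose gene is imprinted in many tissues. With TGFb it had 81.4 and 86.9 CPM with FLASH siRNA, 66.5 and 50.6 CPM with NPAT siRNA, 68.9 and 52.6 CPM with SLBP siRNA, and 41.8 and 36.0 CPM in non-transfected cells. In untreated cells it had 65.6 and 67.3 CPM with FLASH siRNA, 31.0 and 33.7 CPM with NPAT siRNA, 21.8 and 22.8 CPM with SLBP siRNA, and 6.39 and 5.98 CPM in non-transfected cells. The siRNA libraries lay above the non-transfected ones throughout, and untreated FLASH siRNA cells had more IGF2 transcript than TGFb-treated non-transfected cells. The end was 0.78 ± 0.13 log2 higher (SE, edgeR adjusted p = 0.00095) and the start 2.55 ± 0.15 log2 higher (adjusted p = 1.2e-06). The interaction was -1.77 log2 (95% interval -2.16 to -1.38, adjusted p = 0.003). Without 1 untreated non-transfected library its adjusted p was 0.059 (replicate 1) or 0.089 (replicate 2). Overlapping genes had few counts beside those of IGF2, 1.03% as many for IGF2-AS on the opposite strand and 4.1% as many for AC132217.1 on the same strand.

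COL5A1 was the only 1 of 32 collagen genes with a called interaction, where 0.0507% of all genes tested had one. It encodes the alpha 1 chain of type V collagen, which starts the assembly of collagen fibrils. In TGFb-treated cells it had 68.8 and 79.3 CPM with FLASH siRNA, 58.4 and 47.7 CPM with NPAT siRNA, 73.9 and 71.1 CPM with SLBP siRNA, and 44.3 and 37.7 CPM in non-transfected cells. In the absence of TGFb it had 11.1 and 10.7 CPM with FLASH siRNA, 7.66 and 7.40 CPM with NPAT siRNA, 3.39 and 4.23 CPM with SLBP siRNA, and 1.32 and 1.41 CPM in non-transfected cells. Both levels were higher in every siRNA library, the end by 0.68 ± 0.11 log2 (SE, edgeR adjusted p = 0.001) and the start by 2.31 ± 0.16 log2 (adjusted p = 2.8e-06). TGFb still raised COL5A1 9.69-fold in siRNA cells, against 30.0-fold in non-transfected cells. The interaction was -1.63 log2 (95% interval -2.03 to -1.22, adjusted p = 0.0076), and its adjusted p was 0.23 or 0.11 without replicate 1 or replicate 2 of the untreated non-transfected cells. The mean over NPAT and SLBP siRNA alone gave -1.37 log2 (adjusted p = 0.054).

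DACT1, which binds Dishevelled proteins and restrains Wnt signalling, was close to silent in untreated non-transfected cells. With TGFb it had 18 and 19.7 CPM with FLASH siRNA, 7.40 and 7.39 CPM with NPAT siRNA, 25.5 and 22.9 CPM with SLBP siRNA, and 6.78 and 7.73 CPM in non-transfected cells. Without TGFb it had 3.49 and 2.91 CPM with FLASH siRNA, 0.981 and 1.5 CPM with NPAT siRNA, 1.63 and 2.19 CPM with SLBP siRNA, and 0.107 and 0.114 CPM in non-transfected cells. The last 2 values rest on 6 counts in both libraries together. From the counts, untreated siRNA cells had 19.0 times the DACT1 of non-transfected cells (95% counting interval 8.65 to 52.2). The end was 1.05 ± 0.16 log2 higher (edgeR adjusted p = 0.00064), though the NPAT siRNA libraries with TGFb overlapped the non-transfected ones. The interaction was -3.05 log2 (95% interval -3.85 to -2.24, adjusted p = 0.0089), and its adjusted p was 0.3 or 0.13 without replicate 1 or replicate 2 of the untreated non-transfected cells. On a log2(CPM + 5) scale, chosen after the values were seen, the sign turned, to 0.28 (limma-trend adjusted p = 0.78).

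Promoter sequences from RefSeq (GRCh38.p14) were at hand for 4 of the 8 genes: DACT1, COL5A1, MDGA1 and SORL1. They were searched for the SMAD box CAGAC, the AP-1 site TGANTCA and the E-box CAGGTG bound by SNAIL and ZEB factors, on both strands, since SMADs and these EMT factors act in the TGFb response. The DACT1 window, shown because it is the only 1 of the 3 weaker-induction promoters with a SMAD box, holds 2 of them, in capitals, at 87 and 19 bases before the start site (chr14:58633811-58634110, plus strand).
DACT1: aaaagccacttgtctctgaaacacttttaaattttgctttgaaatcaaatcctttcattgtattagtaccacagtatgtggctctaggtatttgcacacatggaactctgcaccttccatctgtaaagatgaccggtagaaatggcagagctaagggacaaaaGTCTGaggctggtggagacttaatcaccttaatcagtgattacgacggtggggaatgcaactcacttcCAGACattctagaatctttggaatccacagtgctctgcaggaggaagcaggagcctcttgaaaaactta
A SMAD box was present in 45.0% of all 27305 promoter windows of 300 bases and in 46.3% of the 596 windows of genes induced in non-transfected cells, so its presence is common. A match is a description of these letters and not a binding site.

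TMEM92 and NKAIN4 encode membrane proteins, NKAIN4 one that associates with the beta subunit of the sodium pump. With TGFb, TMEM92 had 16.2 and 20.8 CPM with FLASH siRNA, 26.6 and 23.7 CPM with NPAT siRNA, 37.3 and 45.6 CPM with SLBP siRNA, and 17.0 and 18.2 CPM in non-transfected cells. In untreated cells it had 6.55 and 5.45 CPM with FLASH siRNA, 6.49 and 6.77 CPM with NPAT siRNA, 4.50 and 4.27 CPM with SLBP siRNA, and 1.14 and 1.10 CPM in non-transfected cells. Untreated siRNA cells were above non-transfected cells in all libraries, whereas with TGFb the FLASH siRNA libraries overlapped them. The end was 0.60 ± 0.13 log2 higher (SE, edgeR adjusted p = 0.0045) and the start 2.31 ± 0.17 log2 higher (adjusted p = 6.4e-06). The TMEM92 interaction was -1.70 log2 (95% interval -2.16 to -1.25, adjusted p = 0.0089). Its adjusted p was 0.23 and 0.13 without the untreated non-transfected replicates 1 and 2, and 0.058 without replicate 2 of the non-transfected cells with TGFb.

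NKAIN4 was the 1 gene of the 8 with a raised start and no called end difference. In TGFb-treated cells it had 22.1 and 17.4 CPM with FLASH siRNA, 25.5 and 20.1 CPM with NPAT siRNA, 25.3 and 27.8 CPM with SLBP siRNA, and 29.6 and 24.5 CPM in non-transfected cells. In the absence of TGFb it had 1.53 and 1.69 CPM with FLASH siRNA, 1.81 and 2.21 CPM with NPAT siRNA, 0.293 and 0.494 CPM with SLBP siRNA, and 0.0714 and 0.190 CPM in non-transfected cells, the last from 7 counts. The groups overlapped with TGFb and did not without it. The end difference was -0.24 log2 (95% interval -0.58 to 0.10, edgeR adjusted p = 0.27), an interval that holds a drop of up to 0.58 log2. By counts the untreated siRNA cells had 10.0 times the NKAIN4 of non-transfected cells (95% counting interval 4.79 to 25.3). The interaction was -3.26 log2 (95% interval -4.17 to -2.36, adjusted p = 0.011), with adjusted p of 0.31 and 0.1 without the untreated non-transfected replicates 1 and 2 and 0.05 without replicate 1 of the non-transfected cells with TGFb. The antisense gene FLJ16779 had 40.2% as many counts as NKAIN4 and no called interaction (-0.55 log2, adjusted p = 1.0). Whether the counting used the strand is not given in the sources used here, so reads of the 2 genes may be mixed.

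CYP24A1, the vitamin D 24-hydroxylase that inactivates vitamin D, had 13.2 and 10.3 CPM with FLASH siRNA, 16.5 and 13.6 CPM with NPAT siRNA, 22.6 and 26.4 CPM with SLBP siRNA, and 9.87 and 12.6 CPM in non-transfected cells, all with TGFb. Without TGFb it had 4.90 and 4.53 CPM with FLASH siRNA, 5.36 and 3.47 CPM with NPAT siRNA, 3.10 and 2.86 CPM with SLBP siRNA, and 0.643 and 0.647 CPM in non-transfected cells. The untreated groups were separate, while FLASH siRNA cells with TGFb overlapped their non-transfected counterparts. The end was 0.54 ± 0.17 log2 higher (SE, edgeR adjusted p = 0.035) and the start 2.61 ± 0.25 log2 higher (adjusted p = 3.2e-05). The CYP24A1 interaction of -2.07 log2 (95% interval -2.72 to -1.43, adjusted p = 0.025) was among the least stable calls. It was lost without any 1 of 11 of the 16 libraries, namely all 4 non-transfected ones, all 4 with SLBP siRNA, replicate 1 of untreated FLASH siRNA, replicate 2 of FLASH siRNA with TGFb and replicate 2 of NPAT siRNA with TGFb, with adjusted p up to 0.5.

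MDGA1, a membrane-anchored adhesion protein that binds neuroligins, falls outside the naming rule and was named after its values were seen, since it is the last of the 8. With TGFb it had 40.5 and 36.4 CPM with FLASH siRNA, 33.0 and 31.3 CPM with NPAT siRNA, 19.2 and 18.6 CPM with SLBP siRNA, and 17.9 and 14.2 CPM in non-transfected cells. In untreated cells it had 39.0 and 35.5 CPM with FLASH siRNA, 12.3 and 15.6 CPM with NPAT siRNA, 10.2 and 9.99 CPM with SLBP siRNA, and 4.32 and 4.15 CPM in non-transfected cells. All siRNA libraries were above the non-transfected ones in each condition, and in FLASH siRNA cells the level was nearly the same with and without TGFb. The TGFb response of MDGA1 in FLASH siRNA cells was 0.05 log2 (95% interval -0.25 to 0.34, edgeR adjusted p = 0.92), at a level above that of TGFb-treated non-transfected cells. The end was 0.83 ± 0.12 log2 higher (SE, adjusted p = 0.00048) and the start 2.04 ± 0.14 log2 higher (adjusted p = 2.7e-06). The interaction of -1.20 log2 (95% interval -1.57 to -0.83, adjusted p = 0.025) was lost without any 1 of 11 of the 16 libraries, with adjusted p up to 0.31. Those were both untreated non-transfected libraries, replicate 1 of the non-transfected cells with TGFb, replicate 1 of untreated FLASH siRNA, replicate 2 of untreated SLBP siRNA and all 6 siRNA libraries with TGFb.

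**Figure D2:**
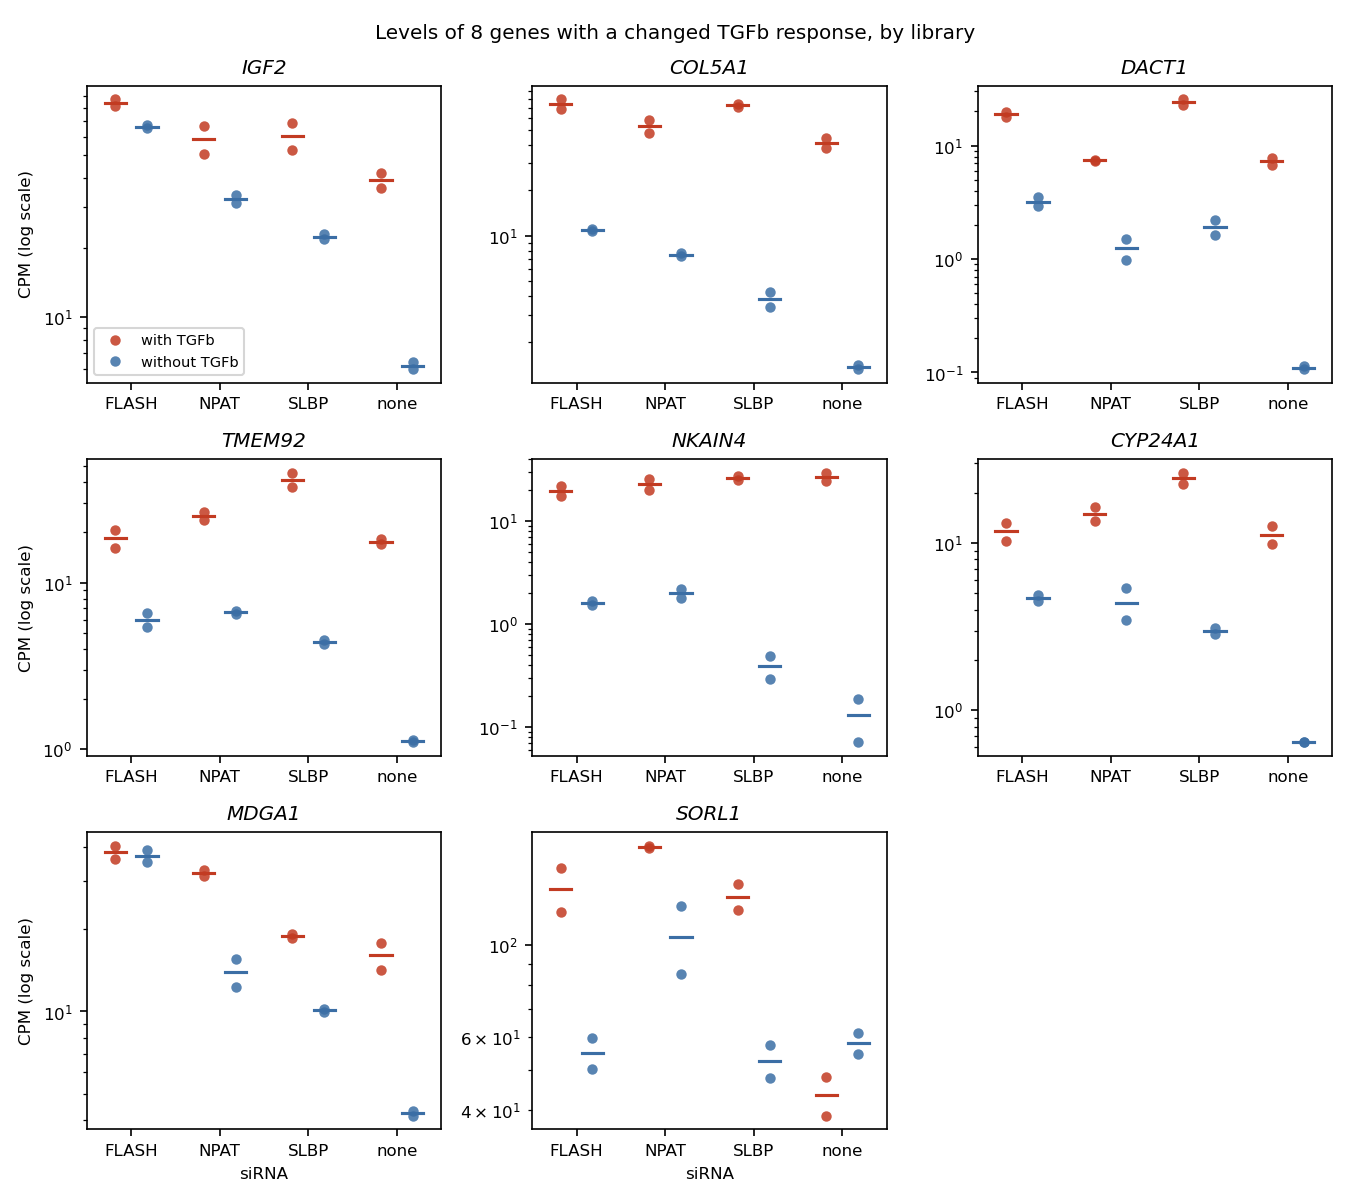
Each panel shows 1 gene, with the CPM of each library on a log scale, cells with TGFb (red) left of cells without TGFb (blue), grouped by siRNA with non-transfected cells ("none") last, and the group mean as a bar. In the 7 genes other than SORL1 the blue points of non-transfected cells lie lowest, while the red points lie closer together, and in SORL1 the red points of non-transfected cells lie below all other red points.

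Over the 7 genes with a weaker induction the start difference made the interaction. All 6 untreated siRNA libraries lay above both non-transfected ones in 7 of 7 genes, by 4.10-fold to 17.1-fold in the fitted start level, and the start was called higher in all 7, as in 20.1% of all genes tested. The end level was called higher in 6 of 7 (against 16.6% of all genes tested) and lower in 0 of 7 (against 12%). No gene passed the threshold with a weaker induction and a lower end, whether or not the start also differed. The response to TGFb in siRNA cells was still called in 7 of 7 genes, with folds of 1.64 to 21.1. Genes chosen for an interaction below 0 must differ at the start or at the end, and the 3 values share libraries, so the start and end values describe what the interaction is made of and are no separate test of it. Other settings gave other counts of weaker inductions with a lower end: 1 in DESeq2, 1 with a replicate block and 18 with no filter on low counts.

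**Figure D3:**
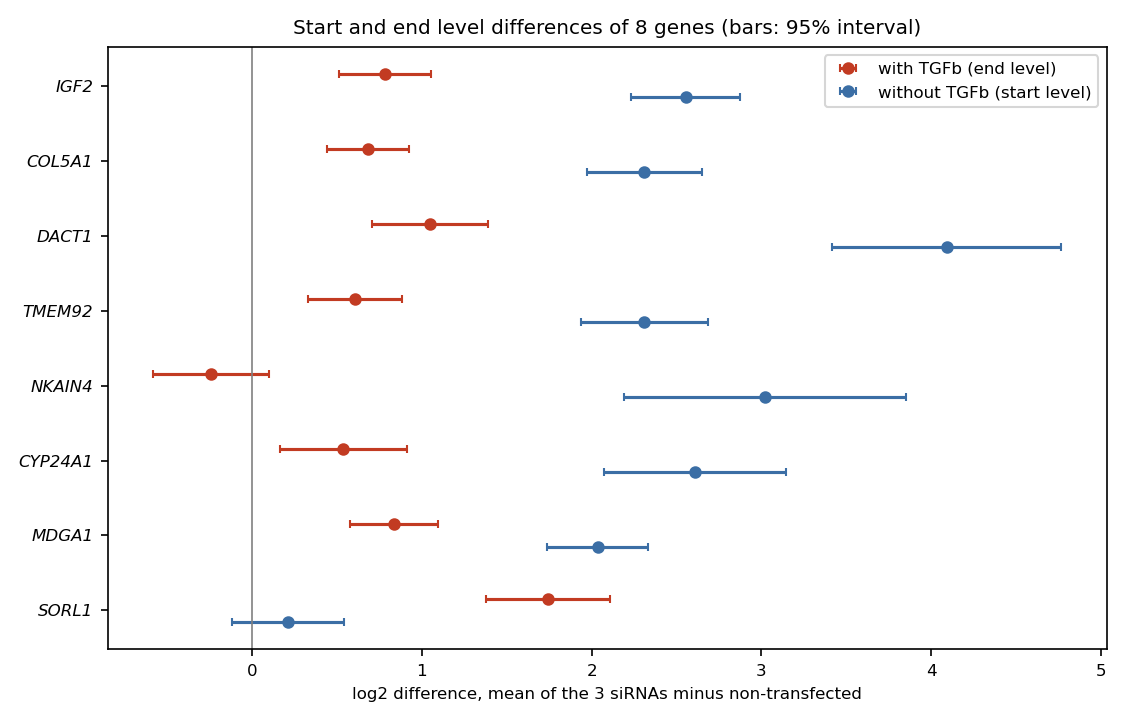
For each of the 8 genes, points give the log2 difference between the mean of the 3 siRNAs and non-transfected cells, with TGFb (red, the end level, upper) and without TGFb (blue, the start level, lower), and bars give the 95% interval. The blue points of the first 7 genes lie between 2.04 and 4.09 and the red ones between -0.24 and 1.05, and SORL1 has the reverse order, with 1.74 at the end and 0.21 at the start.

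On a linear scale the rise in transcript with TGFb was larger in siRNA cells for some of the 7 genes and smaller for others. The mean rise in siRNA cells was 79.6% to 206% of that in non-transfected cells over the 7 genes, with a median of 124%, and it was the larger in 4 of 7. For COL5A1 the rise was 63.2 ± 7.42 CPM with FLASH siRNA, 45.5 ± 7.57 CPM with NPAT siRNA, 68.7 ± 2.04 CPM with SLBP siRNA and 39.6 ± 4.73 CPM in non-transfected cells (SD, n = 2 libraries a group). The ranges of the 7 genes overlap 100% for each siRNA: 10.3% to 218% with FLASH siRNA, 77.3% to 154% with NPAT siRNA and 74.3% to 312% with SLBP siRNA. The lowest value is that of MDGA1 with FLASH siRNA, at 1.21 ± 3.81 CPM against 11.8 ± 2.58 CPM in non-transfected cells. No test was made on this scale.

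**Figure D4:**
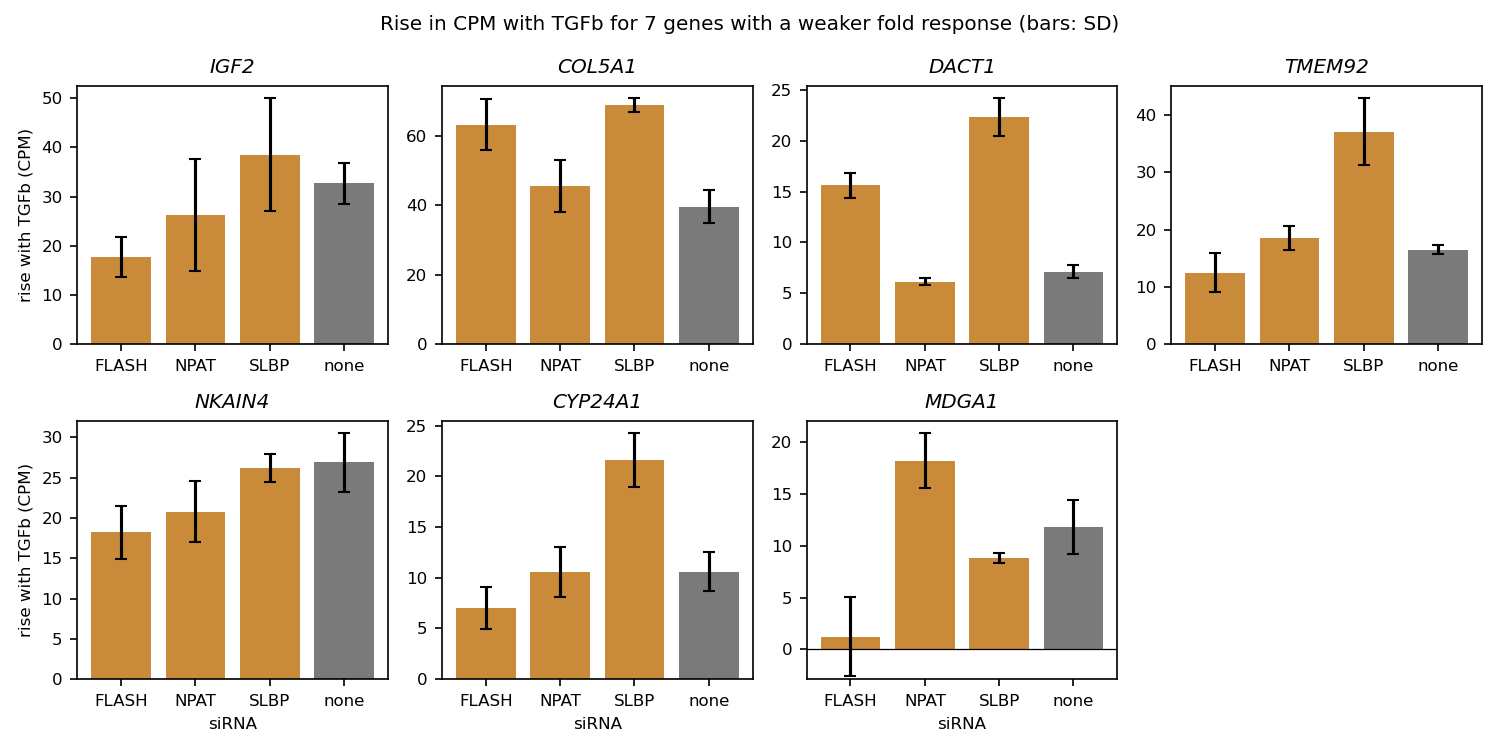
Bars give the rise in mean CPM with TGFb (TGFb minus none) for each siRNA (orange) and for non-transfected cells (grey, right), and error bars give the SD of the difference of 2 groups of 2 libraries. The orange bars are above the grey one in some genes and below it in others, and only MDGA1 with FLASH siRNA is near 0.

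SORL1 was the only gene with a called interaction above 0, and there the end level made the difference on average over the siRNAs. It encodes a sorting receptor that moves proteins, the amyloid precursor among them, between endosomes and the Golgi. With TGFb, SORL1 had 153 and 120 CPM with FLASH siRNA, 171 and 173 CPM with NPAT siRNA, 121 and 140 CPM with SLBP siRNA, and 48.1 and 38.8 CPM in non-transfected cells. In the absence of TGFb it had 59.5 and 50.2 CPM with FLASH siRNA, 124 and 85.1 CPM with NPAT siRNA, 57.4 and 47.9 CPM with SLBP siRNA, and 61.3 and 54.6 CPM in non-transfected cells. With TGFb each siRNA library was above both non-transfected ones, and without it FLASH and SLBP siRNA cells overlapped non-transfected cells. TGFb raised SORL1 by 1.11 ± 0.11 log2 in siRNA cells (SE, edgeR adjusted p = 1.1e-05), against -0.42 ± 0.19 log2 in non-transfected cells, which did not pass (adjusted p = 0.26). Its end was 1.74 ± 0.17 log2 higher (adjusted p = 3.9e-05) and the start differed by 0.21 log2 (95% interval -0.12 to 0.54, adjusted p = 0.3). That mean start joined a called difference of 0.85 log2 with NPAT siRNA (adjusted p = 0.0047) with -0.08 log2 for FLASH and -0.14 log2 for SLBP siRNA. The interaction of 1.53 log2 (95% interval 1.06 to 2.00, adjusted p = 0.025) was lost without any 1 of 7 libraries, with adjusted p up to 0.35: the 4 non-transfected ones, replicate 1 of FLASH siRNA with TGFb, and replicate 2 of SLBP and of NPAT siRNA with TGFb.

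The SORL1 promoter is shown because SORL1 alone went the other way. Its window (chr11:121452064-121452363, plus strand, RefSeq GRCh38.p14) holds 1 E-box on the opposite strand, in capitals, 7 bases before the start site, and no SMAD box or AP-1 site in these letters.
SORL1: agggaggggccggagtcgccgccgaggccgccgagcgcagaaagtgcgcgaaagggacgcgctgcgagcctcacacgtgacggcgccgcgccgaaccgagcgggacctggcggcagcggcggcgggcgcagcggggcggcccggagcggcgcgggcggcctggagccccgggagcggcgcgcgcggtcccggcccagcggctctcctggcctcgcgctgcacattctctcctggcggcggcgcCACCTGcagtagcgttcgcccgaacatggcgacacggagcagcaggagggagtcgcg
The E-box was found in 20.6% of all promoter windows and in 21.3% of those of induced genes, and the AP-1 site in 7.76% and 5.54%. The COL5A1 and MDGA1 windows hold none of the 3 motifs.

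Calls were also counted for each siRNA. Tested against the same non-transfected libraries, FLASH siRNA gave 15 called interactions (0.0845% of genes tested), NPAT siRNA 8 (0.0451%) and SLBP siRNA 4 (0.0225%). This order did not hold in other settings: DESeq2 called 31, 24 and 31, no filter on low counts 157, 125 and 271, and a replicate block 26, 20 and 23 for FLASH, NPAT and SLBP siRNA, and the SLBP count ran from 0 to 9 with 1 library left out. Of the 8 genes described, 8 were called for FLASH, 6 for NPAT and 0 for SLBP. The median interaction of the 7 weaker genes was -2.34 log2 for FLASH siRNA, -2.09 for NPAT siRNA and -1.07 for SLBP siRNA. Without FLASH siRNA, the mean over NPAT and SLBP siRNA kept 2 of the 8 calls, DACT1 and IGF2. Without SLBP siRNA all 8 remained among 13 calls. The difference among the 3 siRNAs was itself called for 19 genes (0.107%), among them COL5A1 (adjusted p = 0.021), NKAIN4 (adjusted p = 0.035) and TMEM92 (adjusted p = 0.035) in an edgeR quasi-likelihood test that uses no non-transfected library.

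TGFBI, a secreted matrix protein named for its induction by TGFb, had the smallest p for a difference among the siRNAs (edgeR adjusted p = 0.0002). In TGFb-treated cells it had 1580 and 1810 CPM with FLASH siRNA, 1740 and 1360 CPM with NPAT siRNA, 2450 and 3020 CPM with SLBP siRNA, and 1260 and 1100 CPM in non-transfected cells. Without TGFb it had 139 and 127 CPM with FLASH siRNA, 414 and 413 CPM with NPAT siRNA, 103 and 103 CPM with SLBP siRNA, and 129 and 136 CPM in non-transfected cells. NPAT siRNA cells started high and SLBP siRNA cells ended high. The interaction was -1.25 log2 for NPAT siRNA (95% interval -1.65 to -0.84, adjusted p = 0.046) and 1.58 log2 for SLBP siRNA (1.17 to 1.99, adjusted p = 0.011). These opposed values average to 0.29 log2 (95% interval -0.05 to 0.62, adjusted p = 1.0), so the mean over siRNAs does not show them. LTBP2, which is related to the proteins that hold latent TGFb in the matrix, also differed among the siRNAs (adjusted p = 0.027), with -0.57 log2 for FLASH, -0.97 for NPAT and 0.37 for SLBP siRNA, of which none passed alone.

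Further genes passed for a single siRNA and fall outside the naming rule, so they were chosen after their values were seen. For FLASH siRNA these were COMP (-4.53 log2, adjusted p = 0.028), LRRC15 (-3.31, 0.0043), PIK3AP1 (-1.99, 0.046), THBS1 (-1.74, 0.015), HTR1D (-1.55, 0.0019) and GPC4 (-1.45, 0.016) in the edgeR test. COMP and THBS1 are matrix proteins of the thrombospondin family, GPC4 is a glypican of the cell surface, PIK3AP1 is an adaptor of PI3 kinase and HTR1D is a serotonin receptor. COMP rested on 3 counts in untreated non-transfected cells. In 5 of these 6 genes both start and end were called higher over the siRNAs. HTR1D was the exception and the only 1 of these 6 with a lower end. Its end difference was -0.35 log2 (95% interval -0.54 to -0.16, adjusted p = 0.011) and its start difference 0.49 log2 (0.26 to 0.71, adjusted p = 0.0041). With TGFb it had 39.7 and 35.5 CPM with FLASH siRNA, 35.5 and 34.8 CPM with NPAT siRNA, 54.6 and 59.6 CPM with SLBP siRNA, and 52.9 and 54.8 CPM in non-transfected cells. FLASH and NPAT siRNA cells lay below non-transfected cells and SLBP siRNA cells did not. The interaction over all siRNAs was -0.84 log2 (adjusted p = 0.072) in edgeR, and it passed in DESeq2 and with a replicate block.

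For SLBP siRNA the prostaglandin transporter SLCO2A1 had an interaction of 3.69 log2 (edgeR adjusted p = 0.011), and adrenomedullin, encoded by ADM, one of -0.91 log2 (adjusted p = 0.039). With TGFb, SLCO2A1 had 5.73 and 9.28 CPM with SLBP siRNA, against 0.277 and 0.252 CPM in non-transfected cells. In untreated cells it had 1.37 and 1.52 CPM with SLBP siRNA, against 0.786 and 0.533 CPM in non-transfected cells. It thus rose with TGFb after SLBP siRNA, while its TGFb response in non-transfected cells was -1.31 log2 (adjusted p = 0.059). Over all siRNAs the SLCO2A1 interaction was 2.39 log2 (adjusted p = 0.072). ADM had 158 and 157 CPM with SLBP siRNA and 197 and 210 CPM in non-transfected cells with TGFb, and 327 and 341 CPM with SLBP siRNA and 237 and 223 CPM in non-transfected cells without TGFb.

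None of the 23 pathway and EMT genes described had a called interaction over the siRNAs in this fit. A replicate block called COL1A1 and ID1, no filter on low counts called these and SMAD7, and the log2(CPM + 5) scale called COL4A1. Among ligands, the interaction was 0.30 log2 for TGFB1 (95% interval -0.13 to 0.73) and -0.42 for TGFB2 (-1.02 to 0.19). Of the receptors, TGFBR1 had -0.22 log2 (-0.47 to 0.02) and TGFBR2 had -0.48 (-0.91 to -0.05), each with an edgeR adjusted p of 1.0. The TGFBR2 start level was 0.81 ± 0.15 log2 higher in siRNA cells (SE, adjusted p = 0.0015), and TGFb changed TGFBR2 by -0.50 log2 there (adjusted p = 0.0027) and by -0.02 log2 in non-transfected cells (adjusted p = 1.0). The difference between those 2 responses is the interaction, which did not pass.

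Feedback regulators restrain the pathway once it is active, and of the 16 on the list 3 ended lower and 2 higher in siRNA cells, against 12% and 16.6% of all genes tested. PMEPA1, which keeps SMAD2 and SMAD3 from the receptors, had 788 and 726 CPM with FLASH siRNA, 904 and 921 CPM with NPAT siRNA, 760 and 695 CPM with SLBP siRNA, and 1080 and 1180 CPM in non-transfected cells, all with TGFb. In the absence of TGFb it had 97.8 and 118 CPM with FLASH siRNA, 151 and 167 CPM with NPAT siRNA, 80.2 and 72.9 CPM with SLBP siRNA, and 107 and 109 CPM in non-transfected cells. All siRNA libraries with TGFb were below the non-transfected ones. Without TGFb those with NPAT siRNA lay above, those with SLBP siRNA below, and those with FLASH siRNA on either side. The end difference was -0.50 log2 (95% interval -0.69 to -0.32, edgeR adjusted p = 0.0012), and the start difference 0.02 (-0.17 to 0.21, adjusted p = 0.89). That mean start joined opposed differences, of 0.56 log2 with NPAT siRNA (adjusted p = 0.0025) and -0.50 log2 with SLBP siRNA (adjusted p = 0.0059). The PMEPA1 interaction was -0.52 log2 (-0.79 to -0.26) and did not pass (adjusted p = 0.56). SMAD7, the inhibitory SMAD, had an end difference of -0.45 log2 (adjusted p = 0.037), a start difference of 0.36 log2 (adjusted p = 0.1) and an interaction of -0.81 log2 (-1.29 to -0.34, adjusted p = 0.8). SKIL, a repressor of SMAD complexes, had an interaction of -0.41 log2 (-0.87 to 0.05). ID1, a target of SMAD signalling that blocks basic helix-loop-helix factors, had an interaction of -1.28 log2 (-2.06 to -0.51, adjusted p = 0.84, and 0.031 with a replicate block), an end difference of 0.06 log2 (adjusted p = 0.88) and a start 1.34 log2 higher (adjusted p = 0.0032).

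Matrix targets of TGFb mostly started higher. COL1A1, the alpha 1 chain of type I collagen, had 2350 and 2140 CPM with FLASH siRNA, 4970 and 6440 CPM with NPAT siRNA, 3960 and 4920 CPM with SLBP siRNA, and 2560 and 3000 CPM in non-transfected cells, all with TGFb. Without TGFb it had 167 and 213 CPM with FLASH siRNA, 442 and 822 CPM with NPAT siRNA, 140 and 264 CPM with SLBP siRNA, and 42.2 and 81.9 CPM in non-transfected cells. FLASH siRNA cells ended below non-transfected cells and the other siRNA cells above them, while every siRNA library started above them. The COL1A1 interaction was -1.76 log2 (95% interval -2.65 to -0.86) with an edgeR adjusted p of 0.56, or 0.011 with a replicate block. Its size was like those of called genes with a wider error, an SE of 0.41 log2 in this fit and 0.25 log2 with the block. FN1, encoding fibronectin, was higher in siRNA cells by 3.38 log2 at the end and 3.80 log2 at the start (adjusted p = 4.8e-05 for each), with an interaction of -0.42 log2 (-1.42 to 0.59). COL4A1, a basement membrane collagen chain, was higher by 2.39 log2 at the end and 3.50 log2 at the start, with an interaction of -1.11 log2 (-2.28 to 0.07). The sign of the COL4A1 interaction turned to 0.61 on log2(CPM + 1) and to 1.47 on log2(CPM + 5), where limma-trend called it (adjusted p = 0.011).

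For each of the EMT genes named below, the interval of the interaction held 0. VIM, encoding vimentin, had an interaction of -0.24 log2 (95% interval -0.55 to 0.07), and CDH2, encoding N-cadherin, one of -0.01 log2 (-0.43 to 0.42). CDH1, encoding the epithelial cadherin, had 18.4 and 19.2 CPM with FLASH siRNA, 15.5 and 15.6 CPM with NPAT siRNA, 3.36 and 2.85 CPM with SLBP siRNA, and 2.14 and 2.26 CPM in non-transfected cells, all with TGFb. In untreated cells it had 38.4 and 30.8 CPM with FLASH siRNA, 31.6 and 27.4 CPM with NPAT siRNA, 9.94 and 13.6 CPM with SLBP siRNA, and 5.39 and 7.16 CPM in non-transfected cells. CDH1 fell with TGFb on average in siRNA cells and in non-transfected cells. In siRNA cells its end was 2.13 log2 higher and its start 1.87 log2 higher, with an interaction of 0.27 log2 (-0.24 to 0.77). AGR2, a secretory epithelial protein, had an interaction of 0.42 log2 (-0.47 to 1.31). Among transcription factors of EMT, SNAI1 had -0.06 log2 (-0.43 to 0.31), ZEB1 had 0.26 (-0.02 to 0.55) and SNAI2 had -1.33 (-4.18 to 1.52), the last from 3 counts in untreated non-transfected cells. The transcripts of the siRNA targets had interactions of 0.03 log2 (CASP8AP2, 95% interval -0.38 to 0.43), 0.05 (NPAT, -0.32 to 0.42) and 0.02 (SLBP, -0.25 to 0.30).

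The gene lists showed the same split between start and response. Of the 21 pathway and process lists, interactions were called for 1 of 32 collagens (COL5A1), 1 of 16 TGFb feedback regulators (DACT1) and 1 of 37 TGFb target genes (NKAIN4), all lower, and for 0 members of the other 18. Over all genes tested, 0.0451% were called lower. Each of these list counts is 1 gene, so they do not set the lists apart. The median interaction was -0.47 log2 for collagens, -0.18 for feedback regulators and -0.21 for TGFb targets, beside -0.01 over all genes tested. Collagens ended higher for 21 of 32 members (median 1.26 log2) and started higher for 25 (median 2.12 log2), with none lower at either level, where 16.6% of all genes tested ended higher and 20.1% started higher. Of 14 collagens induced in non-transfected cells, 13 started higher without a lower end, as did 358 of all 805 induced genes. Matrix glycoproteins and proteoglycans ended higher for 29 of 36 members (median 2.06 log2) and started higher for 28 (median 1.92 log2), against the same 16.6% and 20.1%. The TGFb response of this matrix list had nearly equal medians, 0.94 log2 in siRNA cells and 0.95 log2 in non-transfected cells. The fibroblast and stellate markers named above were also higher in the siRNA libraries, for 6 of 8 at the end and 5 of 8 at the start, against 16.6% and 20.1% of all genes tested. In non-transfected cells 6 of the 8 stayed under 1 CPM and 1 had no counts. That 1, and perhaps others, passed the count filter only through siRNA libraries, so these counts depend on that selection.

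TGFb targets outside the matrix had smaller shifts. Of 37 TGFb target genes, 32 rose with TGFb in siRNA cells (median 1.53 log2) and 26 in non-transfected cells (median 1.70 log2), where 13.8% and 4.54% of all genes rose. The list, with NKAIN4 on it, was chosen with earlier results of these data known, so these shares describe it and are no separate test. Their end level was higher for 11 (16.6% of all genes) and lower for 2 (12%), and their start level was higher for 15 (20.1%) and lower for 2. Contractile cytoskeleton genes had median responses of 0.61 log2 in siRNA cells and 0.80 log2 in non-transfected cells, and 9 and 10 of 22 were higher at the end and at the start (16.6% and 20.1% of all genes tested). Epithelial junction and identity genes fell for 17 of 40 members in siRNA cells (median -0.35 log2) and for 6 of 40 in non-transfected cells (median -0.32 log2), where 11.3% and 1.64% of all genes tested fell. Replication-dependent histones, whose transcripts the 3 targets help to make, had a median interaction of -0.62 log2 with 0 of 40 called. They ended higher for 30 of 40 members (median 2.02 log2) and started higher for 36 (median 2.62 log2), again beside 16.6% and 20.1% of all genes tested. The 40 tested are those with enough counts among 70 histone genes, and the counts of called members come from such a selection.

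**Figure D5:**
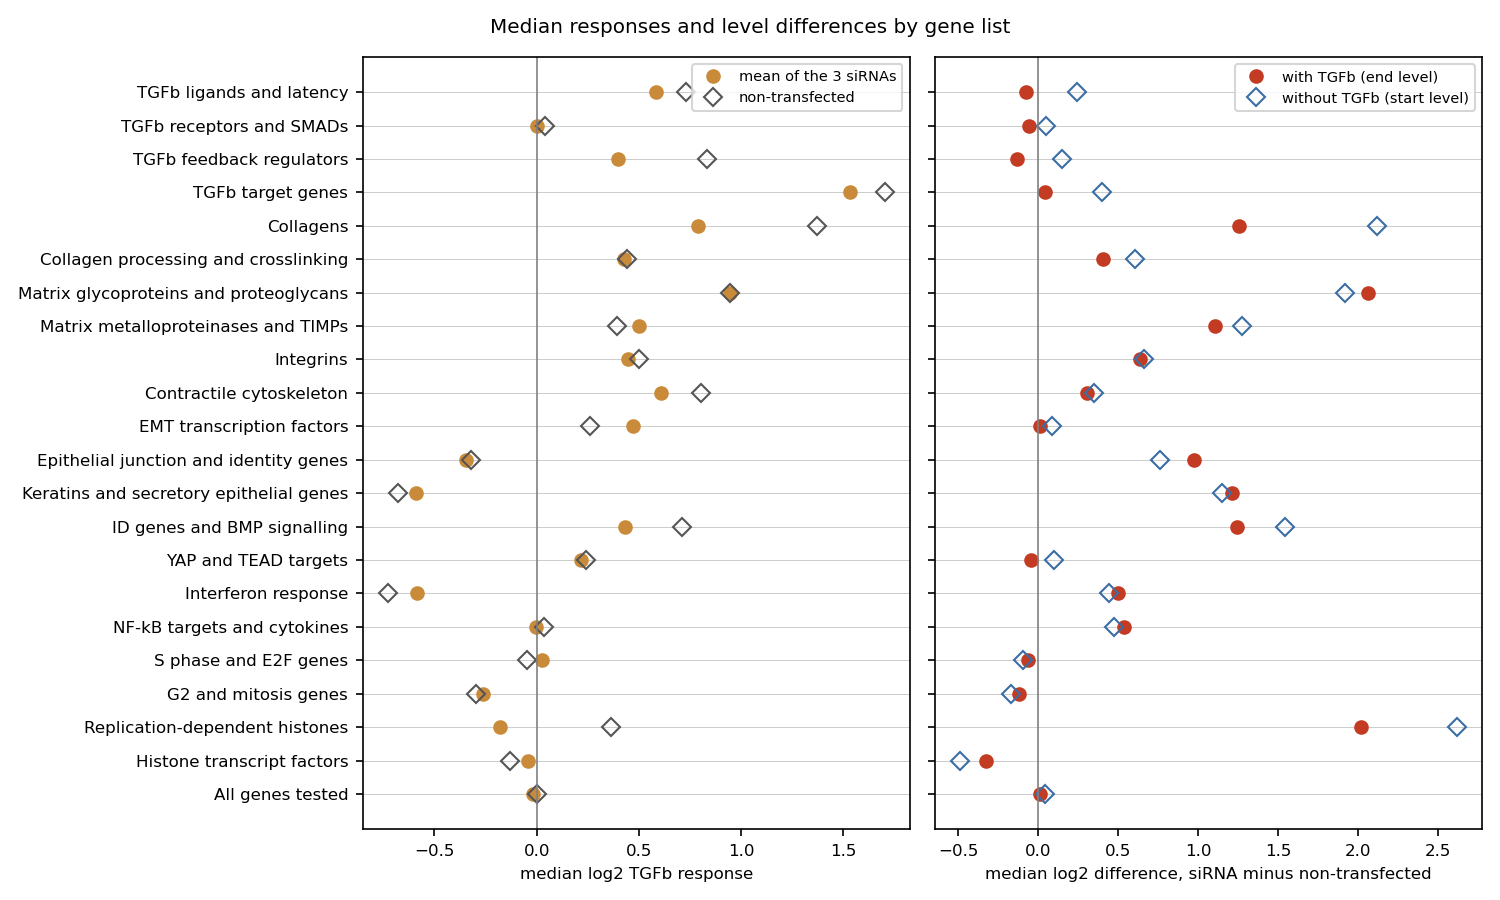
Each row is 1 gene list, with all genes tested at the bottom. The left panel gives the median log2 TGFb response in siRNA cells (filled) and non-transfected cells (open), and the right panel the median log2 difference of siRNA minus non-transfected cells with TGFb (filled) and without it (open), where collagens, matrix glycoproteins and histones lie farthest right.

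Induced genes with a lower end and no called start difference are 1 place where a lost response would show, and none of their interactions passed in this fit. With no filter on low counts, the interactions of SCD and LTBP3, described below, were called. They were 53 of the 805 induced genes (6.58%, against 2.31% of all genes tested), and those described here were chosen after their values were seen. The induced genes were picked with the same TGFb-treated non-transfected libraries that the end difference uses. That choice favours a lower end, so the larger share is no test of lost responses. SCD, the stearoyl-CoA desaturase of fatty acid synthesis, had 1220 and 959 CPM with FLASH siRNA, 2230 and 2060 CPM with NPAT siRNA, 2610 and 2170 CPM with SLBP siRNA, and 3130 and 2900 CPM in non-transfected cells, all with TGFb. All siRNA libraries were lower, those with FLASH siRNA most. The end difference of SCD was -0.77 log2 (95% interval -1.22 to -0.31, edgeR adjusted p = 0.017), the start difference -0.22 (-0.69 to 0.25, adjusted p = 0.46) and the interaction -0.55 (-1.22 to 0.12, adjusted p = 1.0). NUAK1, a kinase of the AMPK family, had an end difference of -0.65 log2 (adjusted p = 0.0048) and an interaction of -0.53 (-0.98 to -0.08). LTBP3, which binds latent TGFb in the matrix, had an end difference of -0.54 log2 (adjusted p = 0.017) and an interaction of -0.81 (-1.28 to -0.34). DLX2, a homeobox factor, had an end difference of -0.69 log2 (adjusted p = 0.021) and an interaction of -0.82 (-1.47 to -0.16), with 28.8 and 58.6 CPM in the non-transfected libraries with TGFb, which lie far apart.

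A further 29 induced genes were lower at both levels, such as GADD45B and IL18BP, again chosen after their values were seen. GADD45B, a stress protein induced by TGFb, had an end difference of -0.83 log2 and a start difference of -0.80 log2 (edgeR adjusted p = 0.014 for each), and its interaction was -0.02 (95% interval -0.72 to 0.67). IL18BP, which binds interleukin 18, had -0.95 log2 at the end and -0.74 log2 at the start, with an interaction of -0.21 (-0.49 to 0.08). Only 2 induced genes started higher and ended lower, HTR1D and RP11-29G8.3. The TGFb response of RP11-29G8.3 was 2.35 log2 in non-transfected cells and -0.50 log2 in siRNA cells. Its interaction did not pass in this fit and was called with no filter on low counts.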

How the data were processed

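RNA of 16 PANC-1 libraries was sequenced from poly(A)-selected, stranded libraries, per the labels' protocols. Per the submitters' processing notes, the authors used STAR 2.4.2a, RSEM 1.2.31 and GRCh38.p10. The values used here are the expected counts the authors deposited, which are estimates that share reads mapping to several genes. A further 64 deposited columns were not used. Whether the counting used the strand is not given in the sources used here.

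Expected counts were rounded to whole numbers, and 26056 genes had none in any library. filterByExpr kept 17743 genes. A model with 1 mean per group was fitted with edgeR 4.0.16 in R 4.3.3, with TMM scaling and 8 residual degrees of freedom, and each comparison was a two-sided quasi-likelihood F test with p values adjusted by Benjamini and Hochberg's method over all genes, at 0.05. Intervals are 95% intervals of the fitted log2 differences, and ± values are SE for these and SD for CPM. Counting intervals cover counting error only. All comparisons with non-transfected cells share the same controls. Alternatives used DESeq2 1.42.0, limma 3.58.1, other scalings and filters, a replicate block, means over a pair of siRNAs and each library left out. The edgeR step was tested on simulated data. GENCODE release 29 gave positions, by identifier, for 99.7% of the genes.

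The labels do not say that replicates came from separate cultures, so p values measure the spread between these libraries, which may be technical. Pairs of replicates correlated at 0.981 to 0.991 and no pair of libraries was identical. The genes named are fixed pathway and EMT genes (23 described), the 6 largest called interactions in each class (mean 5 CPM or more) with 1 sign for all siRNAs, and the largest called members of each list, with exceptions stated. A few results that the rule covers are not reported here. The comparison, the lists and the rule were chosen with earlier results of these data known.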

Additional observations from a re-analysis of the deposited data

Results flagged for a closer look

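The 8 genes described were picked by the test of whether the effect of TGFb differed between siRNA cells and non-transfected cells. Their values below are therefore no separate test of that difference. For single siRNAs against the same controls, 8 of them were called for FLASH, 6 for NPAT and 0 for SLBP. The interactions on the log2 scale were -3.26 for NKAIN4, -3.05 for DACT1, -2.07 for CYP24A1, -1.77 for IGF2, -1.70 for TMEM92, -1.63 for COL5A1, -1.20 for MDGA1 and 1.53 for SORL1. In the first 7 of these the untreated siRNA cells had the higher level, and in SORL1 the TGFb-treated ones.

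For 5 of the genes that the naming rule or the called interactions gave, the effect of TGFb also differed among FLASH, NPAT and SLBP siRNA, with edgeR quasi-likelihood adjusted p of 0.0002 for TGFBI, 0.021 for COL5A1, 0.027 for LTBP2, 0.035 for NKAIN4 and 0.035 for TMEM92. Among genes named after their values were seen it differed for GPC4 and HTR1D (adjusted p = 0.014 each), LRRC15 (0.044), ADM (0.049) and SLCO2A1 (0.05). The response of COL5A1 was 2.77 log2 with FLASH siRNA, 2.82 with NPAT siRNA and 4.25 with SLBP siRNA, against 4.90 in non-transfected cells. The response of NKAIN4 was 3.61 log2 with FLASH siRNA, 3.50 with NPAT siRNA and 6.07 with SLBP siRNA, against 7.66 in non-transfected cells. The response of TMEM92 was 1.62 log2 with FLASH siRNA, 1.92 with NPAT siRNA and 3.24 with SLBP siRNA, against 3.97 in non-transfected cells. In these 3 genes the response with SLBP siRNA lay between that with the other siRNAs and that in non-transfected cells.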

How the results depend on the processing

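There were 9 interaction calls, the 8 genes described among them, with RLE size factors, with upper quartile scaling and with a minimum mean of 1 CPM. With no filter on low counts 158 were called (115 lower, 43 higher, all 8 among them). There 32163 genes were tested, against 17743, and the median prior degrees of freedom of the spread were infinite, against 4.4. The part of each was not separated. That setting also gave 69 weaker inductions made by the start only, 18 with a lower end, 71 in other classes, 1735 TGFb responses in non-transfected cells, 157, 125 and 271 interactions for FLASH, NPAT and SLBP siRNA and 390 differences among the siRNAs. DESeq2 called 19 (15 lower, 4 higher, all 8 among them), with 14, 1 and 4 in those classes, 31, 24 and 31 interactions for single siRNAs and 103 differences among them. For these DESeq2 counts the cause was not tested.

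The same replicate numbers occur in every group, but the deviations of same-numbered libraries correlated at 0.05 to 0.528 (median 0.239), over 0.1 in 25 of 28 pairs of groups. As 3 pairs were not over 0.1 and no label ties a number to a shared batch, the numbers were not taken to pair the libraries, though most pairs moved together. All of these correlations were above 0. A shift shared by same-numbered libraries may therefore sit in the error of the fit without a block, which called 9 interactions and 1096 TGFb responses in non-transfected cells. A replicate block called 17 interactions (15 lower, 2 higher, all 8 among them), with 14, 1 and 2 in the classes, 26, 20 and 23 for single siRNAs, 83 differences among them and 2119 TGFb responses in non-transfected cells.

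The mean without FLASH siRNA gave 3 calls, all 3 lower and made by the start only, 0 higher and 0 in other classes. The mean without NPAT siRNA gave 2 higher and 2 in other classes. The mean without SLBP siRNA gave 1 weaker induction with a lower end and 2272 TGFb responses in siRNA cells. With 1 library left out, the lone library is assumed to vary like the other groups. Calls then ran from 1 to 11 for the interaction (1 to 10 lower, 0 to 2 higher), 1 to 10 weaker inductions made by the start only and 0 to 2 in other classes. They ran from 7 to 17 for FLASH, 1 to 7 for NPAT and 0 to 9 for SLBP siRNA, and 1 to 16 for the difference among siRNAs. Start differences ran from 2629 to 7180, end differences from 1686 to 5790 and TGFb responses in non-transfected cells from 504 to 1344.

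The added scales, chosen after seeing the data, weigh low levels less. On log2(CPM + 1), limma-trend called 29 interactions (22 higher), 23 in other classes and 34, 16 and 53 for single siRNAs. On log2(CPM + 5) it called 36 (4 lower, 32 higher; IGF2 and SORL1 among the 8 described), 2 weaker inductions made by the start only, 34 in other classes and 41, 13 and 98 for single siRNAs. There the signs turned for DACT1 (0.28), COL4A1 (1.47, adjusted p = 0.011), FN1 (0.71), SNAI2 (0.31), SNAI1 (0.0117) and CDH1 (-0.19). On log2(CPM + 1) they turned for COL4A1 (0.61) and SNAI2 (0.53).

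Interactions close to 0, none of them called, changed sign elsewhere. CDH2 was 0.0098 with RLE factors and in DESeq2, 0.0208 with upper quartile scaling, 0.0161 with no filter, 0.0064 with the block, 0.11 without NPAT siRNA, 0.0122 and 0.0371 on the added scales, and -0.0793 to 0.11 with 1 library left out. SNAI1 was 0.16 without FLASH siRNA and -0.22 to 0.16 with 1 library left out. TGFBI was -0.36, CASP8AP2 -0.045 and SLBP -0.0488 without SLBP siRNA, and NPAT was -0.0475 without NPAT siRNA. With 1 library left out, CASP8AP2 ran from -0.11 to 0.15, NPAT from -0.0184 to 0.17, SLBP from -0.0696 to 0.11 and AGR2 from -0.12 to 0.81. Depth limits genes near silence in untreated non-transfected cells, such as DACT1 and NKAIN4, with 6 and 7 counts.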
